A study of Mus musculus with 4 samples.

Results

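Spp1 encodes osteopontin, a secreted matrix glycoprotein, and 8 further genes encode its known receptors: the hyaluronan receptor Cd44 and the integrin subunits Itgav, Itgb1, Itgb3, Itgb5, Itga4, Itga5 and Itga9. The 9 genes were taken by symbol from a table of 26322 genes, and all 9 were listed there. Spp1 was chosen by its measured level, which was lower in sgCbfb than in sgNT cells in the same comparison as described here, and the receptors were chosen as known osteopontin-binding proteins with earlier results of these data in view. The values of all 9, with the errors and intervals of the fit, are therefore given as a description, and no p-value is printed for them.

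The study looked for ways in which tumour cells evade T cells, and the comparison of sgCbfb with sgNT cells asks which transcripts differ when Cbfb is targeted, as a way into how Cbfb bears on their response to TNF. Bulk RNA was sequenced in 4 libraries of MC38, a mouse colon carcinoma cell line, with 2 libraries in each of 2 groups. Cells of both groups were electroporated with Cas9 protein loaded with a guide RNA, either a non-targeting guide (sgNT) or a guide against Cbfb (sgCbfb), and RNA was taken at least 1 week later. The sgCbfb cells were an edited pool made with 1 guide rather than a clone, and both groups had been through electroporation and Cas9. 1 more sample of each group was collected but not sequenced because of its RNA quality. The labels do not say whether the libraries came from separate cultures, so the spread between them may be technical. The p-values, errors and intervals of the fit draw that spread largely from all genes of like level. They do not measure the spread of each gene by itself.

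The 3′ mRNA libraries count transcript ends. They held 3396192 and 3335116 reads on genes in sgNT and 3907936 and 3189035 in sgCbfb, so that 1 read was worth 0.256 to 0.314 CPM (reads on a gene relative to the total of its library) and 0 reads allowed a level of up to 0.768 to 0.941 CPM, for counting error only. The level of a gene is given as the log2 CPM that the authors deposited, which lies at -0.79 for a gene with no reads. Of the genes, 12207 passed the filter on low values. Cbfb, the targeted gene, had 295 and 285 reads in sgNT and 125 in each sgCbfb library, and its log2 CPM fell by 1.27 (SE 0.12, adjusted p = 1.76e-07, limma). A 3′ end count does not read the edited site, so it does not check the editing itself. Of 8 epithelial and colon markers, 2 had no reads and none had more than 4 reads in any library, with summed levels of 1.57 to 1.80 CPM, so the epithelial origin given by the labels was not visible in these markers.

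Osteopontin belongs to the family of small acidic phosphoproteins of mineralised matrix, and is also secreted by macrophages, activated T cells and many tumour cells. It carries an arginine-glycine-aspartate sequence that binds αv and α5 integrins. Cleavage by thrombin or matrix metalloproteases exposes a neighbouring site for α4 and α9 integrins, and its C-terminal part has been described to bind CD44. RUNX transcription factors bind DNA together with CBFβ, the product of Cbfb, and Spp1 is known in bone cells as a gene with RUNX sites in its promoter.

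The Spp1 gene (ENSMUSG00000029304) lies on the plus strand of chromosome 5, from 104435118 to 104441050 (GRCm38, GENCODE M21). Gm42793, an experimentally untested transcript model, overlaps it on the same strand and is not listed in the table used. Any reads in the overlap cannot be told apart here, but Gm42793 does not cover the 3′ end of Spp1. The promoter of Spp1 is shown because the targeted gene encodes the partner of RUNX factors. The 250 bases before the RefSeq start of Spp1, chr5:104434861-104435110 of GRCm38.p6 on the plus strand, were searched on both strands for the core RUNX motif TGTGGT or TGCGGT, and the capitals mark the match, which reads ACCACA, the reverse complement of TGTGGT:
Spp1 promoter: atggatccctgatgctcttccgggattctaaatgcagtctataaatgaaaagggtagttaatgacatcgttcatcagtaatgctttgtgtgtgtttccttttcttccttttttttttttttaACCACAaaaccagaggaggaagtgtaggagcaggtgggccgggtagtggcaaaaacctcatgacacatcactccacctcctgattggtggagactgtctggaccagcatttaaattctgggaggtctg
The match lay 128 to 123 bases before the start. No match was found in the window of a second Spp1 start. Among the 8 members with a RefSeq window, which had 9 windows in all, 2 windows held a match, those of Spp1 and Itga4. In Itga4 the same letters, ACCACA, lay 60 to 55 bases before the start. The windows of Cd44, Itga5, Itga9, Itgav, Itgb1 and Itgb5 held none. The RefSeq window of Itga9, chr9:118711442-118711691, lies inside the GENCODE gene and not at the gene start given for it here. Of 32851 mouse promoter windows of the same length, 6107 held a match (18.6%), so the letters are common and a match is a description of the sequence, not a binding site. Itgb3 was not searched.

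Among the 9 genes, Spp1 was less abundant than Itgb1 and Cd44 alone in sgNT cells, and it had a 5.97-fold lower level in sgCbfb cells. It had 389 and 365 reads in the sgNT libraries and 66 and 63 reads in the sgCbfb libraries. The corresponding levels were 6.85 and 6.78 log2 CPM in sgNT and 4.13 and 4.35 log2 CPM in sgCbfb. Both sgCbfb values were low and the groups did not overlap, which restates the choice of the gene. The mean was 6.81 ± 0.046 log2 CPM in sgNT and 4.24 ± 0.16 in sgCbfb (SD, n = 2 each). The difference was -2.58 on the log2 scale (SE 0.13, 95% interval -2.85 to -2.31), or 16.7% of the sgNT level.

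The deposited values include an added prior count, and the ratio of the counted reads without it was -2.62 on the log2 scale. With any 1 library left out the difference lay between -2.69 and -2.47. In bulk RNA, fewer cells expressing Spp1 and less Spp1 RNA per cell cannot be told apart. Spp1 had the 7th lowest fold change of the 12207 genes tested. The 6 genes with a lower one had at most 13 reads in any sgCbfb library and at most 131 in any sgNT library. When only the 9520 genes counted 10 or more times in all 4 libraries were kept, Spp1 had the lowest fold change. These ranks restate the choice of the gene and are no test of it.

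Osteopontin is a product of macrophages, T cells and osteoblasts, so the markers of those cells were read beside it. Of 9 macrophage markers, 4 had no reads in any library, namely Adgre1, Csf1r, Lyz2 and Itgam. The summed level of the 9 was 10.6 and 6.90 CPM in sgNT and 5.63 and 7.21 CPM in sgCbfb, with ranges that overlap. The 4 T cell markers had no reads in any library. Of 6 osteoblast markers, 5 had no reads, and the other, Phex, had at most 9. Of 6 fibroblast markers, 2 had no reads and the summed level was 69.8 and 63.9 CPM in sgNT and 77.0 and 80.0 CPM in sgCbfb, higher in both sgCbfb libraries. No gene of the 5 marker lists passed the threshold of an adjusted p under 0.05 in the limma fit, and 1 had an unadjusted p under 0.05, the fibroblast marker Pdgfra, which was also the 1 gene of these lists past the threshold with voom. Pdgfra, named after its values were seen, had 121 and 91 reads in sgNT and 169 and 152 in sgCbfb (0.53, adjusted p = 0.0515, limma), while Dcn had 110 and 115 reads in sgNT and 116 and 95 in sgCbfb. The part of the fibroblast markers in the values of Spp1 was not tested.

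**Figure D1:**
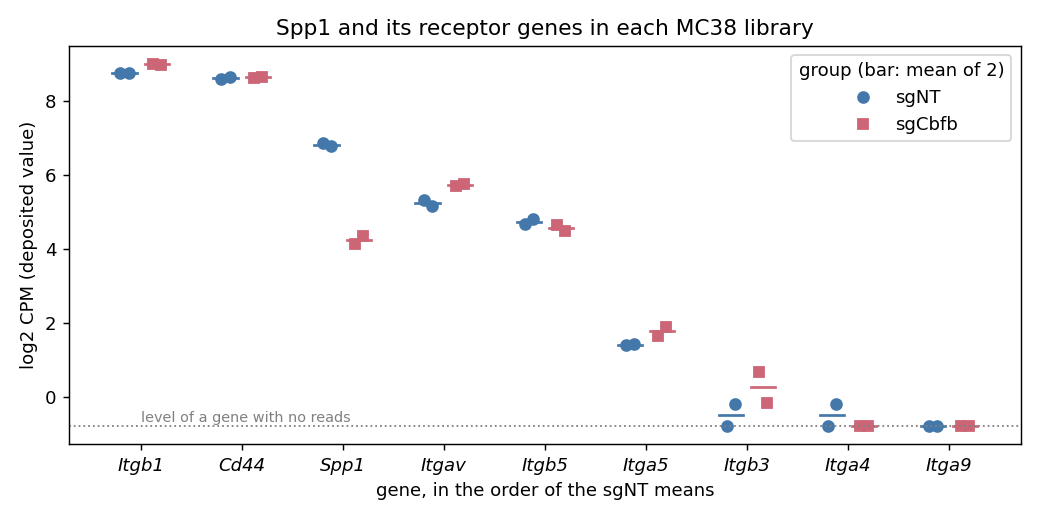
Deposited log2 CPM of the 9 genes in each library, with sgNT as circles, sgCbfb as squares and a bar at the mean of 2 libraries. Spp1 drops from 6.81 to 4.24, below Itgav and Itgb5, while the circles and squares of Cd44 lie together between 8.59 and 8.64 and Itga9 sits at the level of a gene with no reads.

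Of the receptor genes, 5 of 8 passed the filter and 3 did not, namely Itgb3, Itga4 and Itga9. In the fit over all 12207 genes, 345 genes passed the threshold (2.83%), 192 of them higher in sgCbfb (1.57%) and 153 lower (1.25%). Of the 5 receptors, 2 were past it as higher, Itgav and Itgb1, and 0 as lower. The count stayed at 2 with a minimum of 5 CPM, median centring, voom or a replicate block. It was 1 with the ribosomal RNA genes left out. With no low-value filter, quantile normalization or no mean-variance trend it was 0. Without sgNT replicate 1 the count was 1, and without sgNT replicate 2, sgCbfb replicate 1 or sgCbfb replicate 2 it was 0. Since the members were chosen with this comparison known, nothing is read from these counts. The median log2 fold change of the 5 was 0.23, beside 0.039 for all tested genes.

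Cd44 encodes a cell surface glycoprotein that binds hyaluronan and osteopontin (chromosome 2, 102811141 to 102901665, minus strand). It was among the most abundant members, with 1311 and 1326 reads in sgNT and 1540 and 1265 in sgCbfb. Its levels were 8.59 and 8.64 log2 CPM in sgNT and 8.62 and 8.63 in sgCbfb, so the groups overlapped. The difference was 0.013 (SE 0.062, 95% interval -0.11 to 0.14) and its sign turned with the scaling, at -0.014 after quantile normalization and -0.0097 after centring on the library median. Reads at the transcript end do not tell the splice forms of Cd44 apart, and the CD44 variants that have been described to bind osteopontin were not measured.

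Itgav encodes the αv subunit, the partner of β1, β3, β5, β6 and β8 in receptors for arginine-glycine-aspartate sequences (chromosome 2, 83724397 to 83806916, plus strand). It had 133 and 116 reads in sgNT and 202 and 170 in sgCbfb. Its levels were 5.31 and 5.14 log2 CPM in sgNT and 5.71 and 5.75 in sgCbfb, and both sgCbfb libraries were higher than both sgNT libraries. The difference was 0.50 (SE 0.13, 95% interval 0.23 to 0.77), a level of 1.42 times that in sgNT. Under the alternative settings it ran from 0.42, without sgNT replicate 2, to 0.59.

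Itgb1 encodes the β1 subunit, which pairs with αv, α4, α5 and α9 and so takes part in most of the integrins that bind osteopontin (chromosome 8, 128685654 to 128733200, plus strand). It had the highest level of the 9 genes, with 1469 and 1427 reads in sgNT and 1984 and 1594 in sgCbfb. The levels were 8.76 and 8.74 log2 CPM in sgNT and 8.99 and 8.97 in sgCbfb, without overlap. The difference was 0.23 (SE 0.060, 95% interval 0.10 to 0.35), or 1.17 times the sgNT level. With any 1 library left out it lay between 0.22 and 0.24. It was lower with other scalings, at 0.21 after quantile normalization and 0.20 after centring on the library median. With the ribosomal RNA genes left out of the totals it was also 0.20.

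Itgb5 encodes β5, which pairs with αv alone (chromosome 16, 33829665 to 33949338, plus strand). It had 84 and 91 reads in sgNT and 96 and 70 in sgCbfb. Its levels were 4.66 and 4.80 log2 CPM in sgNT and 4.65 and 4.49 in sgCbfb, lower in both sgCbfb libraries, though sgNT replicate 1 and sgCbfb replicate 1 nearly coincided. The difference was -0.16 (SE 0.17, 95% interval -0.51 to 0.19), within the error of the fit. Under the alternatives it lay between -0.24 and -0.079.

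Itga5 encodes α5, which forms the classical fibronectin receptor with β1 (chromosome 15, 103344286 to 103366763, minus strand). It had 7 reads in each sgNT library and 10 in each sgCbfb library. The levels were 1.40 and 1.42 log2 CPM in sgNT and 1.65 and 1.89 in sgCbfb. The difference was 0.36 (SE 0.41, 95% interval -0.48 to 1.20), a wide interval at this depth that holds decreases as well as increases. With 1 library left out it lay between 0.24, without sgCbfb replicate 2, and 0.48.

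The 3 remaining receptor genes were close to or at 0. Itgb3, the β3 subunit of the αvβ3 receptor through which osteoclasts bind osteopontin (chromosome 11, 104608000 to 104670476, plus strand), had 0 and 1 reads in sgNT and 4 and 1 in sgCbfb. Itga4, the α4 subunit of leukocyte integrins (chromosome 2, 79255426 to 79333123, plus strand), had 0 and 1 reads in sgNT and 0 in both sgCbfb libraries. Itga9, the α9 subunit (chromosome 9, 118606690 to 118901003, plus strand), had 0 reads in all 4 libraries. A difference between groups was not detectable for these genes at this depth. The end of Itga4 is overlapped on the other strand by Cerkl, which had 0 reads in every library. The end of Itga9 is overlapped on the other strand by Gm2415, which is not listed in the table used. No fold change is given for any of the 3.

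**Figure D2:**
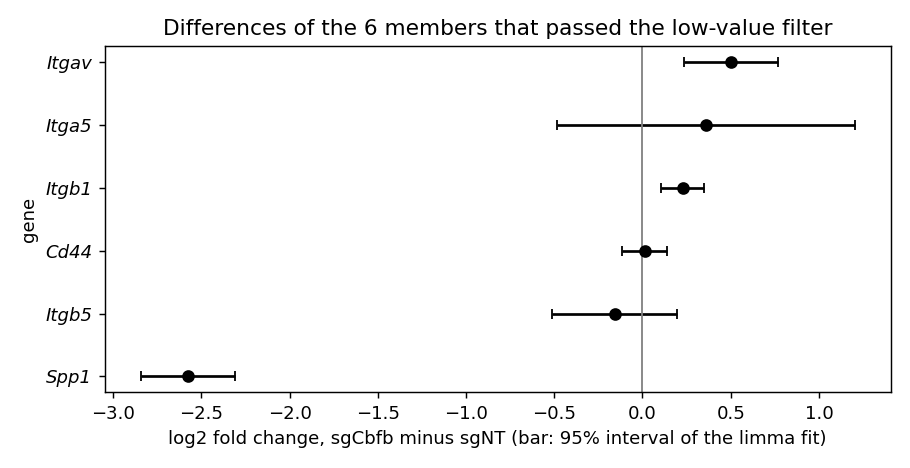
Difference in log2 CPM, sgCbfb minus sgNT, for the 6 genes that passed the filter, with 95% intervals of the limma fit. Spp1 lies at -2.58, Itgav at 0.50 and Itgb1 at 0.23, and the intervals of Cd44, Itgb5 and Itga5 span 0.

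The order of the levels differed between the groups in the place of Spp1. In sgNT it ran Itgb1, Cd44, Spp1, Itgav, Itgb5 and Itga5, and no 2 neighbours in this order overlapped between libraries. In sgCbfb it ran Itgb1, Cd44, Itgav, Itgb5, Spp1 and Itga5, again with no overlap between neighbours: Spp1 reached 4.35 and Itgb5 was at least 4.49 log2 CPM. Itgb3, Itga4 and Itga9 came last in both groups and overlapped with each other in sgNT. Transcript end counts grow little with transcript length and were not divided by it, so an order between genes is one of counted ends.

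The genes of the integrin subunits were also set against their possible partners. Of the reads on the 5 β subunits that pair with αv, Itgb1 had 94.5% and 93.9% in the sgNT libraries (exact Clopper-Pearson 95% intervals 93.3% to 95.6% and 92.6% to 95.1%). In the sgCbfb libraries it had 95.1% and 95.7% (94.1% to 96.0% and 94.6% to 96.6%). Itgb5 had nearly all of the rest, 5.41% and 5.99% in sgNT and 4.60% and 4.20% in sgCbfb, so that Itgb3, Itgb6 and Itgb8 together gave only a few reads in any library. The share of Itgb5 was lower in both sgCbfb libraries, which was not tested. The intervals cover counting error only, since reads amplified by PCR are not independent molecules.

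Of the reads on 12 α subunits that pair with β1, Itgav had 26.9% and 22.5% in sgNT and 22.3% and 22.5% in sgCbfb, which overlapped. Itga6, the α6 subunit of laminin receptors, had 39.8% and 40.1% in sgNT and 48.3% and 51.2% in sgCbfb, higher in both. These are shares of transcript ends and say nothing of the proteins or of pairing at the surface.

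**Figure D3:**
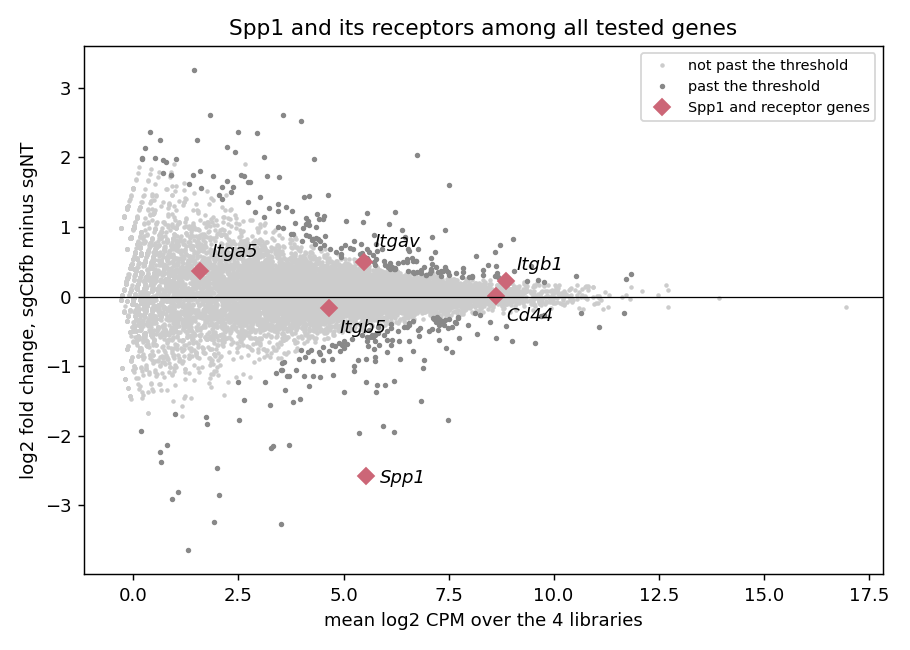
Difference in log2 CPM, sgCbfb minus sgNT, against the mean log2 CPM of the 4 libraries for the 12207 tested genes, with genes past the threshold in darker grey and the 6 tested members as diamonds. Spp1 at -2.58 has the lowest value of the 9520 genes with 10 or more reads in all 4 libraries, while the receptors lie between -0.16 and 0.50.

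The 5 genes whose profile was nearest to that of Spp1 were found among these 9520 genes by the distance between log2 CPM centred on each gene's own mean over the 4 libraries. They were Cp, Bmp2, Prrx2, Col8a1 and Gm20186, at distances of 0.44, 0.48, 0.53, 0.66 and 0.68. Cp encodes the copper-carrying ferroxidase ceruloplasmin and had 64 and 70 reads in sgNT and 14 in each sgCbfb library. Bmp2 encodes a bone morphogenetic protein and had 73 and 66 reads in sgNT and 17 and 13 in sgCbfb.

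Prrx2, a paired-related homeobox gene of mesenchyme, had 108 and 76 reads in sgNT and 20 in each sgCbfb library. Col8a1, a chain of the short-chain collagen VIII, was the most abundant of the 5 with 497 and 469 reads in sgNT and 147 and 114 in sgCbfb. Gm20186, a predicted gene, had 267 and 277 reads in sgNT and 64 and 80 in sgCbfb. Their log2 fold changes of -2.17, -2.15, -2.14, -1.95 and -1.96 were all smaller in size than that of Spp1. With 2 libraries a group, nearness of profile amounts to a large decrease, and no more is read from it.

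The other genes around osteopontin were read from lists, each by the number of genes past the threshold in the same fit, beside which stand 2.83% of all tested genes, 1.57% higher and 1.25% lower. The lists are short, and nothing particular to a list is read from its share. Every call on a gene of these lists was lost when the low-value filter was dropped and, separately, when the mean-variance trend was dropped, with the direction kept. Those on Itgb7, Thbs2, Src, Ezr, Tmem2, Runx2 and Jun were also lost after quantile normalization. Of the 19 other integrin subunits, 8 were tested, 1 rose and 1 fell, with a median log2 fold change of 0.23. Itga6 rose by 0.95 (SE 0.099, adjusted p = 6.51e-07, limma), from 197 and 207 reads to 438 and 386. Itgb7, the β7 subunit that pairs with α4 and αE, fell by 1.14 (SE 0.26, adjusted p = 0.0133, limma), from 64 and 58 reads to 41 and 19. Without sgCbfb replicate 2 the difference was -0.75 and no longer past the threshold. Itga3, with 111 and 138 reads in sgNT and 188 and 144 in sgCbfb, did not pass (0.34, adjusted p = 0.238, limma), and its difference was 0.17 without sgNT replicate 1 and 0.50 without sgNT replicate 2.

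The osteopontin gene family and other bone matrix genes were hardly present. Of 12 listed genes, 9 had no reads in any library, 3 were tested and 0 passed in the limma fit, where 0 also had an unadjusted p under 0.05, and 0 passed with voom. Their median was -0.23. The 9 included Ibsp, Dmp1, Dspp and Mepe, the neighbours of Spp1 in the family. Col1a1, a chain of collagen I, had 8 and 9 reads in sgNT and 13 and 12 in sgCbfb. Phex, a peptidase that cleaves peptides of this family, had 9 and 7 reads in sgNT and 5 and 9 in sgCbfb. Mgp, matrix Gla protein, had 2 reads in each sgNT library and 0 in each sgCbfb library.

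Of 11 genes for enzymes that cleave or modify osteopontin, 6 had no reads, 4 were tested, 1 rose and 0 fell, with a median of 0.51. Mmp9, a gelatinase that cleaves osteopontin, rose by 1.44 (SE 0.21, adjusted p = 6.84e-05, limma). It had 39 and 31 reads in sgNT and 122 and 86 in sgCbfb, or 2.71 times the sgNT level. Tgm2, a transglutaminase that cross-links osteopontin, had 41 and 54 reads in sgNT and 94 and 73 in sgCbfb, a difference of 0.72 (SE 0.20) that just missed the threshold (adjusted p = 0.0545, limma). Without sgNT replicate 2 its difference was past the threshold. Fam20c, the kinase that phosphorylates secreted matrix proteins, had 3 and 5 reads in sgNT and 5 and 6 in sgCbfb.

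Of 23 symbols for other ligands of the same receptors, 20 were listed and 15 tested. The 3 others, Ccn1, Ccn2 and Ccn3, are newer names of Cyr61, Ctgf and Nov, which are counted among the 20. Here 1 rose and 2 fell, and the median was -0.24. Lgals3, the β-galactoside-binding galectin-3, fell by 0.60 (SE 0.063, adjusted p = 6.89e-07, limma), from 1601 and 1655 reads to 1269 and 1001. Thbs2, the matricellular protein thrombospondin-2, fell by 0.48 (SE 0.12, adjusted p = 0.0276, limma), from 201 and 184 reads to 155 and 133. Its call was lost without sgNT replicate 1 (-0.43), without sgCbfb replicate 1 (-0.45) and without sgCbfb replicate 2 (-0.52). Mfge8, a secreted bridge between αv integrins and phosphatidylserine, rose by 0.34 (SE 0.062, adjusted p = 0.00126, limma), from 1226 and 1171 reads to 1803 and 1414.

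Of 28 genes for integrin adaptors and proximal signalling, which link the receptor tails to actin and kinases, 25 were tested, 0 rose and 2 fell, with a median of 0.041 beside 0.039 over all genes. Vcl, the adhesion protein vinculin, fell by 0.64 (SE 0.094, adjusted p = 0.000105, limma), from 409 and 380 reads to 299 and 235. Src, the tyrosine kinase, fell by 0.70 (SE 0.12, adjusted p = 0.000574, limma), from 260 and 229 reads to 183 and 135. Actn1, the most abundant gene of the list, differed by 0.051 (adjusted p = 0.723, limma).

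Around CD44 and hyaluronan, 16 genes were listed and 10 tested, of which 3 rose and 0 fell, with a median of 0.10. Has2, a hyaluronan synthase, had 8 and 11 reads in sgNT and 62 and 56 in sgCbfb. It rose by 2.36 (SE 0.30, adjusted p = 1.6e-05, limma), or 5.12-fold, the largest increase of any gene named here. Tmem2, a cell surface hyaluronidase, rose by 0.47 (SE 0.086, adjusted p = 0.00154, limma), from 418 and 366 reads to 648 and 499. Without sgCbfb replicate 1 its difference was 0.43 and not past the threshold. Ezr, the membrane-actin linker ezrin, which binds the CD44 tail, rose by 0.48 (SE 0.11, adjusted p = 0.0104, limma), from 186 and 205 reads to 327 and 252. Its call was lost without sgNT replicate 1 (0.40), sgCbfb replicate 1 (0.44) or sgCbfb replicate 2 (0.52). The interval of Cd44 itself ran from -0.11 to 0.14 on the log2 scale.

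The last list held 14 transcription factor genes that have been described to act on the Spp1 promoter, and Cbfb was among them. Of these 12 were tested, 2 rose and 2 fell, with a median of -0.15. Runx1 rose by 0.65 (SE 0.093, adjusted p = 6.84e-05, limma), from 249 and 252 reads to 455 and 378. Runx2, the RUNX factor of bone cells, rose by 0.79 (SE 0.18, adjusted p = 0.0123, limma), from 55 and 52 reads to 108 and 90, and its call was lost without sgCbfb replicate 1 (0.81) or sgCbfb replicate 2 (0.78). Runx3 and Dlx5 had no reads. Besides Cbfb, the targeted gene, Jun, a component of AP-1, fell by 0.37 (SE 0.073, adjusted p = 0.00307, limma), from 797 and 775 reads to 724 and 559, and without sgCbfb replicate 2 it differed by -0.33 and was not past the threshold.

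**Figure D4:**
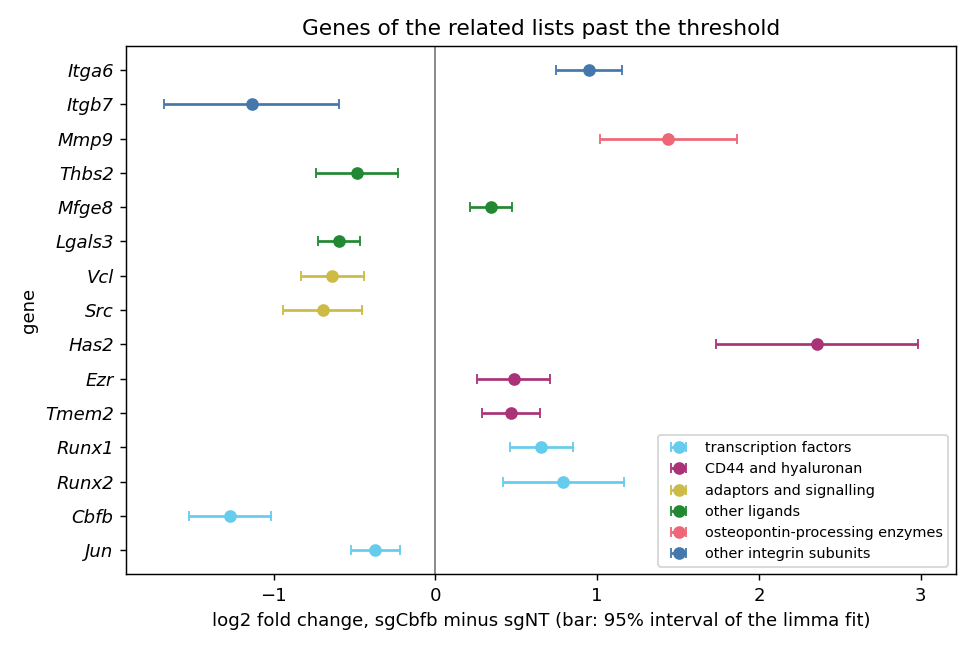
Difference in log2 CPM, sgCbfb minus sgNT, with 95% intervals of the limma fit, for the genes of the related lists that passed the threshold, coloured by list. Has2 at 2.36 and Mmp9 at 1.44 lie farthest to the right, and Cbfb at -1.27 and Itgb7 at -1.14 farthest to the left.

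The direction of Spp1, Itgav, Itgb1, Itgb5 and Itga5 was the same in every alternative setting run, while that of Cd44 turned. The values of Spp1 ran from -2.69 to -2.47, a range that is small beside the difference itself.

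**Figure D5:**
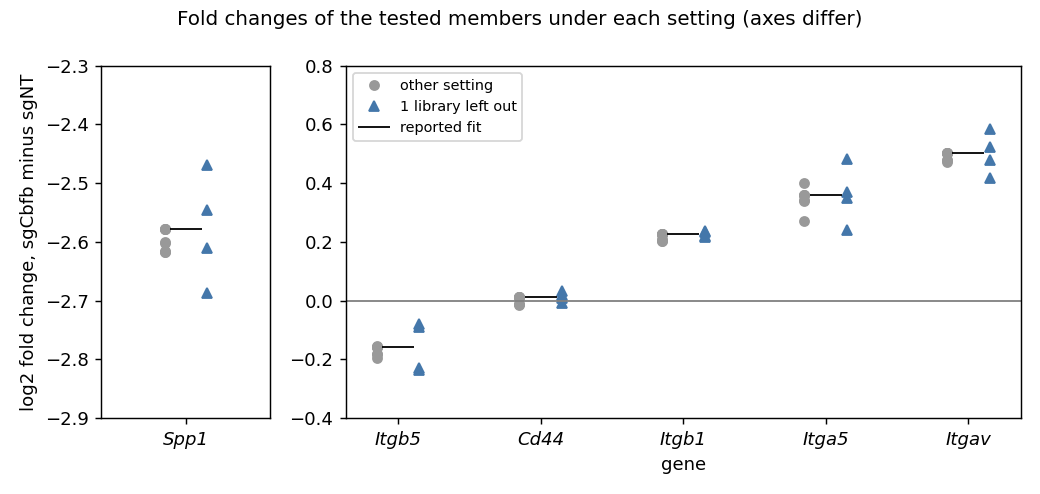
Difference in log2 CPM, sgCbfb minus sgNT, of the 6 tested members under each alternative setting, with fits that leave out 1 library as triangles and the reported fit as a horizontal bar. Spp1 stays between -2.69 and -2.47 in a panel of its own scale, and the values of Cd44 lie on both sides of 0, from -0.014 to 0.034.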

How the data were processed

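RNA of the 4 MC38 libraries was made into 3′ mRNA libraries with a QuantSeq kit. Per the labels and the study's methods, the authors trimmed reads with cutadapt 1.9, aligned them with HISAT2 2.1.0 to GRCm38 (mm10) and counted them per gene with featureCounts (2.0.1 in the submitters' processing notes, while the study's methods name an older version). The authors deposited log2 CPM values, 1 column per library, each scaled to the total of its own library. The tool that made the log2 values, the annotation release, the use of strand and the handling of reads matching several genes are not given in the sources used here, and they could alter the values of overlapping genes. Other cell lines were not analysed here, and 0 columns of per-sample values were left unused.

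The values step by whole reads above a prior count of 2 on average, and reads were recovered from them. Of the values above 0 reads in a library, 99.99% to 100% were whole to within 0.1. Differences were tested with limma 3.58.1 in R 4.3.3 (a trended eBayes fit) on the deposited values. A gene was tested if its log2 CPM reached 0 in 2 or more libraries. The test was two-sided, p-values were adjusted over all tested genes by Benjamini-Hochberg, and the threshold was 0.05. The design allowed for linear or log2 values. They were log2, so no pseudocount was added. The study's voom with limma takes counts and was run on the recovered reads as an alternative. The fitting code was tested on simulated data.

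The members and lists were chosen with earlier results of these data known. The genes named are every member, Cbfb, the genes of each list past the threshold (filled up to 3 with the most highly expressed tested genes), and the 5 genes nearest to Spp1 in profile. Marker genes and genes without reads are also named as examples outside this rule, and Pdgfra and Dcn after their values were seen. As alternatives, the low-value filter was dropped or raised to 5 CPM, values were quantile normalized or centred on medians, ribosomal RNA genes were left out of the totals, and the trend was dropped. Further ones were voom, a replicate block, each library left out, the ratio without the prior count and a threshold of 0.01. Gene positions are from GENCODE M21 and promoters from RefSeq. Figures were drawn with matplotlib 3.10.9 in Python 3.11.15.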

Additional observations from a re-analysis of the deposited data

How the results depend on the processing

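The difference of Spp1 lay between -2.69 and -2.47 in every setting run, libraries left out included, and was -2.58 in the reported fit, -2.62 with voom and -2.60 with the ribosomal RNA genes left out. Its values chose it, so no call on it is read as a test, and it too was not past the threshold with no low-value filter or with no mean-variance trend. Counts past the threshold depended far more on the setting. Over all tested genes, 345 in the reported fit (192 higher, 153 lower) became 55 (2 higher, 53 lower) with no low-value filter, 83 after quantile normalization, 454 with voom on the recovered reads and 0 with no mean-variance trend, where limma still gave 1461 genes at an unadjusted p under 0.05. Leaving out 1 library gave 147 (sgCbfb replicate 1) to 395. Median centring gave 176 higher and 188 lower genes, 48.4% higher, against 55.7%.

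With a replicate block the count over all genes was 535 and that of the osteopontin-modifying enzymes 2, while the receptors kept a count of 2 and the difference of Spp1 stayed at -2.58. The reported fit has no replicate block, since the study's methods name none. Deviations of same-numbered libraries correlated at -0.0042 over all tested genes, which does not show whether some genes shared a replicate effect.

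In each of the fits without a filter and without a trend, 0 genes passed among the receptors (2 in the reported fit), the other integrin subunits (2), the enzymes (1), the other ligands (3), the adaptors (2), the CD44 and hyaluronan genes (3) and the transcription factors (4). The exception was the bone matrix list, with 1 gene, Mgp, instead of 0 without a filter. Quantile normalization gave 0 receptors, 1 other integrin subunit, 1 adaptor, 1 CD44 and hyaluronan gene and 2 transcription factors. With the ribosomal RNA genes left out, 1 receptor passed. Of the enzymes, 2 passed with a minimum of 5 CPM and with voom. At an adjusted p under 0.01, 1 other integrin subunit passed.

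With 1 library left out, the receptors gave 0 to 1, the other integrin subunits 1 to 2, the enzymes 1 to 2, the other ligands 2 to 3, the adaptors 2 to 3, the CD44 and hyaluronan genes 1 to 3 and the transcription factors 2 to 4. The lone library of a group was then assumed to vary like the other group. The cause of these shifts was not tested. Depth limits Itga5, Itgb3, Itga4 and Itga9, which had at most 10 reads in any library.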
